A study of Mus musculus with 18 samples.

Results

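Macrophage and monocyte genes were followed here in RNA-Seq counts of mouse colon from a study of claudin-2, a tight junction protein, in colitis-associated cancer (CAC). The 10 genes were found by their symbols among the 47729 genes of the count table: *Cx3cr1*, *Mrc1*, *Cd163*, *Mertk*, *Ccr2*, *Adgre1*, *Csf1r*, *Itgam*, *Cd68* and *Lyz2*. Of these, 4 (*Cx3cr1*, *Mrc1*, *Cd163* and *Mertk*) served as markers of resident macrophages and 1 (*Ccr2*) as the marker of recruited monocytes. Colons came from 3 naive WT mice (mice 1 to 3), which were untreated, from 3 WT CAC mice (mice 4 to 6), and from 3 *Cldn2*TG CAC mice (mice 7 to 9), numbered as in the labels. CAC mice had received azoxymethane (AOM), a carcinogen, once at 10 mg/kg, and then dextran sulfate sodium (DSS), which injures the colonic epithelium, at 2.5% in 3 cycles. The labels carry this treatment text on the naive samples too, and their treatment label names them controls. *Cldn2*TG mice are Villin-*Cldn2* transgenic mice, in which the villin promoter drives *Cldn2* in the intestinal epithelium. The strain was C57BL/6 with WT littermates, and the labels give no ages. Because no untreated *Cldn2*TG colon was analysed, genotype and treatment cannot be told apart in *Cldn2*TG CAC versus naive WT.

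The colon keeps a large pool of macrophages that is refilled from blood monocytes. Monocytes enter the tissue through the chemokine receptor CCR2, and as they mature they lose CCR2 and gain CX3CR1, the mannose receptor CD206 (encoded by *Mrc1*), the haptoglobin-haemoglobin receptor CD163 and MERTK, a receptor kinase for the uptake of dying cells. In an inflamed colon, cells caught early in this sequence accumulate beside the resident ones. Their survival depends on CSF1R, the receptor for CSF1 and IL-34. In whole colon, fewer cells of a type and less RNA per cell cannot be told apart, and several of these genes are also used by other cells.

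The libraries held 14142711 to 22262546 counts, so that 3 counts corresponded to 0.130 to 0.222 CPM (the read count relative to the library's total count, scaled by TMM factors over all 9 mice). The 10 genes were sparse apart from *Lyz2* and *Mertk*, with 278 counts of *Itgam* over all 9 mice and 392 of *Cx3cr1*. The tissue label matched its markers: the summed level of 6 colonic epithelial genes lay between 10867 and 15758 CPM in the 9 mice, with none of the 6 at 0. *Cldn2* was at 191 to 259 CPM in naive WT, 119 to 137 in WT CAC and 208 to 251 in *Cldn2*TG CAC. It was thus 1.72-fold higher in *Cldn2*TG CAC than in WT CAC (edgeR's quasi-likelihood test, Benjamini-Hochberg adjusted p = 0.0103), and within the range of naive WT. Within WT CAC, mouse 4 stood apart. Its root mean square log2 difference from the mean of the other mice of its group was 0.668 over 13916 genes, against 0.377 to 0.535 for the other 8 mice, and it lay nearer to the naive mean (0.711) than mice 5 and 6 (0.967 and 1.07). Naive WT mouse 1 had *Xist* at 214 CPM and the 4 Y-linked genes examined at 0.199 CPM or lower, while the other 8 mice had *Xist* at 0.203 CPM or lower. Results that turn on mouse 1 or mouse 4 are given with and without it.

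In the count table (GRCm38), *Mrc1* lies at chr2:14229392-14332057 and *Mertk* at chr2:128698956-128802894, *Cd163* at chr6:124304656-124330527, *Itgam* at chr7:128062640-128118491, *Cx3cr1* at chr9:119901616-120068283, *Ccr2* at chr9:124101950-124113557, *Lyz2* at chr10:117277334-117282274, *Cd68* at chr11:69664213-69666153 and *Adgre1* at chr17:57358686-57483529. *Lyz2*, *Cx3cr1* and *Cd68* are on the minus strand. Several share sequence with other genes, and whether counting used strand is not given in the sources used here. *Itgam* shares 3450 of its 5024 exonic bases with a read-through gene on the same strand, *Gm49368*, which had 1 count in all. Reads on bases shared between genes could be left uncounted. The level of *Itgam* and its tests are uncertain to that extent, which was not tested. *Csf1r* shares 871 exonic bases with *Hmgxb3* on the opposite strand.

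Myeloid genes are commonly read by the transcription factor PU.1, many of whose sites hold GAGGAA. Sequences in the RefSeq promoter table (GRCm38.p6) were matched for 8 of the 10 genes, all but *Adgre1* and *Csf1r*. In the 250 bases before the start that the table gives, GAGGAA was present on either strand in 3 of the 8 (*Mrc1*, *Itgam* and *Cd68*) and in 23.3% of all 32851 promoters of the table. The longer GAGGAAGT, which contains it, was in 0 of the 8 and in 2.4% of all. These windows are not all upstream sequence, since 250 bases of *Cx3cr1*, 233 of *Ccr2*, 49 of *Lyz2* and 22 of *Mrc1* lie in annotated exons of the gene itself, and 28 of *Cd163* in those of *Gm25311*. The sequences are those of *Cd68* and *Itgam*, with a match, and of *Mertk*, without one, the 3 genes whose windows overlap no annotated exon. *Lyz2*, *Ccr2* and *Cx3cr1*, without a match, were called lower with *Cd68* and *Mrc1* in *Cldn2*TG CAC versus WT CAC. Because the windows of *Cx3cr1* and *Ccr2* are wholly or mostly exon, no relation between matches and changes can be read from this. Capitals mark GAGGAA or its reverse complement TTCCTC, 5′ to 3′ on the gene's own strand.
Cd68, chr11:69666171-69666420, minus strand: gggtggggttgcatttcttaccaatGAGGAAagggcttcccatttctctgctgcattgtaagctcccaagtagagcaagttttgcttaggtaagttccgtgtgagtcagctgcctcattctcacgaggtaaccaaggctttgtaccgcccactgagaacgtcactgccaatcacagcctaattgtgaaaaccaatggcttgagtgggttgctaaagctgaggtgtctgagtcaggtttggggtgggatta
Itgam, chr7:128062390-128062639, plus strand: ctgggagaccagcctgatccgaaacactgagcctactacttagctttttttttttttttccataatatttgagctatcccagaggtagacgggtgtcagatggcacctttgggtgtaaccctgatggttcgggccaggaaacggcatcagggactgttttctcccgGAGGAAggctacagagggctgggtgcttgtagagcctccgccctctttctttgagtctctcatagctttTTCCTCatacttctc
Mertk, chr2:128698665-128698914, plus strand: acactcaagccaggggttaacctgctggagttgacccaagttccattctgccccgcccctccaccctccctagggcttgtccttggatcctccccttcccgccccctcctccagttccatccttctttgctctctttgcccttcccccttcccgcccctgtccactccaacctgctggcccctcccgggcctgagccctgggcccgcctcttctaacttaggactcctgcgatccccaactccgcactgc
The match of *Cd68* begins 225 bases before the start, and those of *Itgam* 84 and 15 bases before it. A match is a stretch of letters and not a measured binding site, and sites without GAGGAA were not searched for.

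WT CAC colon was compared with naive WT colon to ask how macrophage and monocyte transcripts stand in the diseased colon. *Cd68*, *Csf1r*, *Mrc1* and *Lyz2* rose between 2.65-fold and 3.79-fold, no member fell, and the transcripts of *Mertk*, *Cx3cr1* and *Adgre1* did not pass the test. Of the 10 genes 9 could be tested, since *Cd163* had too few counts, and 4 of these 9 were called at an adjusted p under 0.05. Over all 15437 genes tested, 15% were called and 8.04% were called higher. The median log2 fold change of the 9 genes was 1.41, beside 0.02 over all genes.

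**Figure D1:**
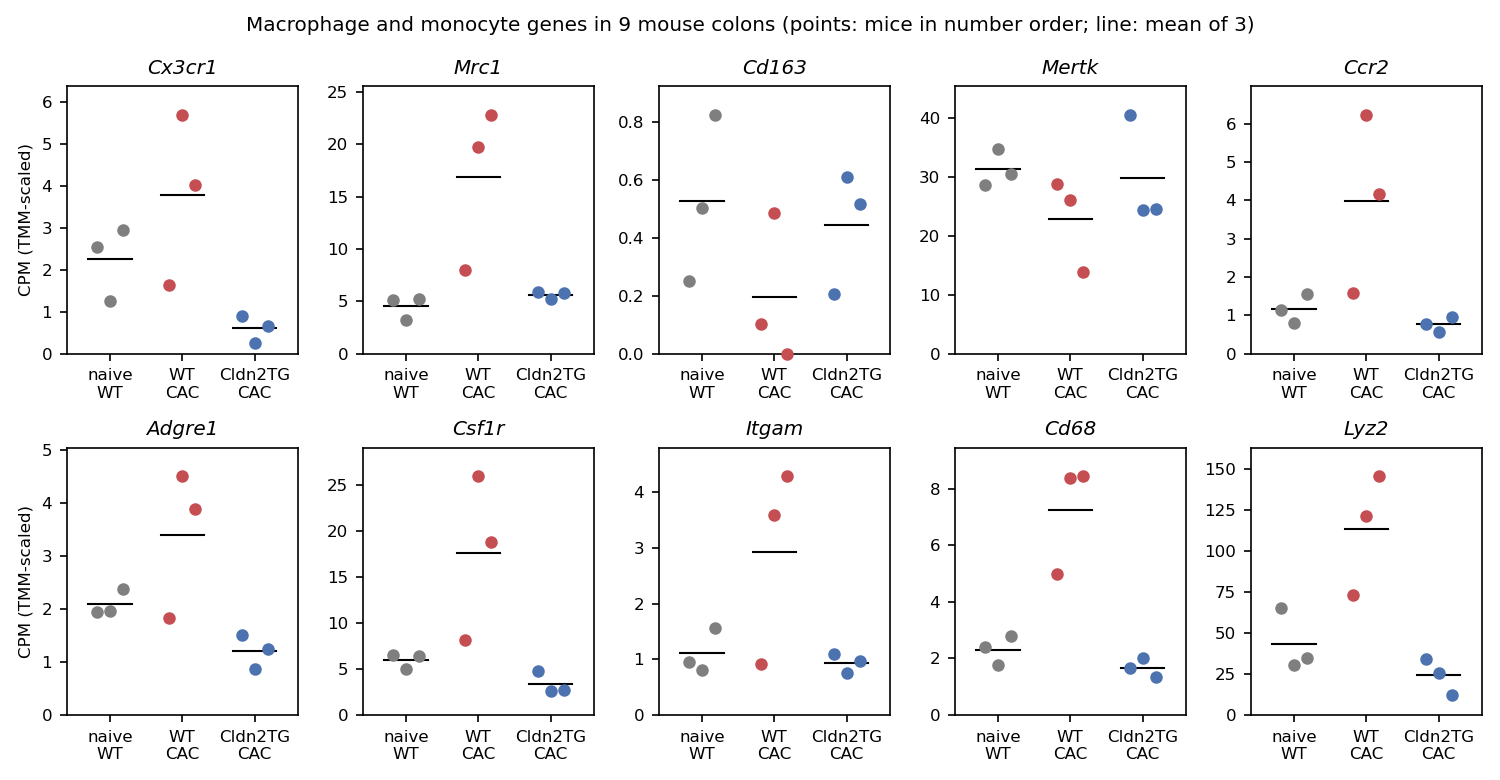
CPM of each of the 10 genes (linear axis from 0) in every mouse, with naive WT in grey, WT CAC in red and Cldn2TG CAC in blue, mice in number order from left to right and a line at the mean of 3. WT CAC mouse 4 is the lowest of its group for 8 genes and does not exceed the highest naive mouse for *Adgre1*, *Cx3cr1* and *Itgam*, while *Mertk* and *Cd163* do not share the pattern of the rest.

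*Cd68*, which encodes a glycoprotein of macrophage lysosomes, was at 2.39, 1.76 and 2.78 CPM in naive WT mice 1 to 3 and at 4.98, 8.36 and 8.44 CPM in WT CAC mice 4 to 6. The groups did not overlap, and the log2 fold change was 1.67 (SE 0.30, edgeR adjusted p = 0.0158). *Csf1r*, the receptor on which macrophage survival depends, was at 6.52, 4.97 and 6.38 CPM in naive WT and at 8.13, 25.9 and 18.7 CPM in WT CAC. Mouse 4 was just above the naive range and mice 5 and 6 far above it (log2 fold change 1.58, SE 0.39, edgeR adjusted p = 0.0348).

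*Mrc1* was at 5.08, 3.21 and 5.25 CPM in naive WT and at 8.03, 19.7 and 22.8 CPM in WT CAC. With all mice, this resident-type gene had the highest fold change of the 9 (log2 1.92, SE 0.40, edgeR adjusted p = 0.0228), in the same direction as the pan-macrophage genes. The rank was not stable, as *Ccr2* was above *Mrc1* without mouse 3, without mouse 6 (log2 1.75 against 1.64) and from lane 2 alone (2.11 against 2.06). *Lyz2*, encoding the lysozyme of macrophages and neutrophils, was at 65.5, 30.8 and 34.5 CPM in naive WT and at 73.2, 121 and 146 CPM in WT CAC. Its groups came closest between naive WT mouse 1 and WT CAC mouse 4, without overlap (log2 fold change 1.40, SE 0.36, edgeR adjusted p = 0.0425).

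*Ccr2*, the receptor of recruited monocytes, was at 1.14, 0.803 and 1.56 CPM in naive WT and at 1.57, 6.24 and 4.15 CPM in WT CAC. Mouse 4 was level with the highest naive mouse, and the log2 fold change of 1.78 (SE 0.51) missed the threshold (edgeR adjusted p = 0.0528). *Itgam*, the integrin alpha M chain CD11b of monocytes, macrophages and neutrophils, was at 0.946, 0.803 and 1.56 CPM in naive WT and at 0.914, 3.58 and 4.29 CPM in WT CAC (log2 1.41, SE 0.56, edgeR adjusted p = 0.125). *Adgre1*, encoding the F4/80 antigen, was at 1.94, 1.96 and 2.39 CPM against 1.83, 4.51 and 3.88 CPM (log2 0.72, SE 0.36, edgeR adjusted p = 0.206). *Itgam* and *Adgre1* overlapped between the groups through mouse 4 alone.

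*Cx3cr1*, the fractalkine receptor that marks mature macrophages, was at 2.54, 1.26 and 2.95 CPM in naive WT and at 1.63, 5.70 and 4.02 CPM in WT CAC (log2 0.77, SE 0.49, edgeR adjusted p = 0.317). *Mertk* was at 28.6, 34.7 and 30.6 CPM in naive WT and at 28.8, 26.0 and 13.8 CPM in WT CAC, the only negative estimate among the 9 (log2 -0.42, SE 0.25, edgeR adjusted p = 0.278). Unlike the others, it was lowest in mouse 6, a mouse in which *Cd68*, *Mrc1*, *Itgam* and *Lyz2* were at their highest. *Cd163* had 5, 10 and 19 counts in the naive mice and 2, 11 and 0 counts in mice 4 to 6, where 0 counts in mouse 6 allow up to 0.201 CPM.

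The groups of 5 of the 9 genes (*Cd68*, *Csf1r*, *Mrc1*, *Lyz2* and *Ccr2*) did not overlap, as for 38.0% of all genes tested in WT CAC versus naive WT. Their two-sided exact permutation p was 0.1, the smallest that 3 mice against 3 can give. The number called depended on single mice. It was 7 without mouse 4, when *Ccr2*, *Adgre1* and *Itgam* joined the 4, and 0 without naive mouse 2 or 3. Without mouse 1, 5 or 6 it was 1, namely *Lyz2*, *Cd68* and *Cd68*. The direction of the 4 called genes was the same in every one of these fits. Over all genes the calls ranged from 135 without naive mouse 2 to 4080 without mouse 4, against 2310 with all mice.

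*Cldn2*TG CAC colon was compared with WT CAC colon to ask how the same transcripts stand in treated mice that carry the villin-driven *Cldn2* transgene. Of the 9 genes tested, 6 fell (*Cx3cr1*, *Ccr2*, *Csf1r*, *Lyz2*, *Cd68* and *Mrc1*), by 3.04-fold to 6.48-fold, and no member rose. Over all 14888 genes tested, 9.54% were called and 7.35% were called lower. The 6 hold the recruited monocyte marker and 2 of the 4 resident-type markers. The median log2 fold change of the 9 genes was -2.12, beside 0.01 over all genes, and *Mertk* had the only positive estimate.

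**Figure D2:**
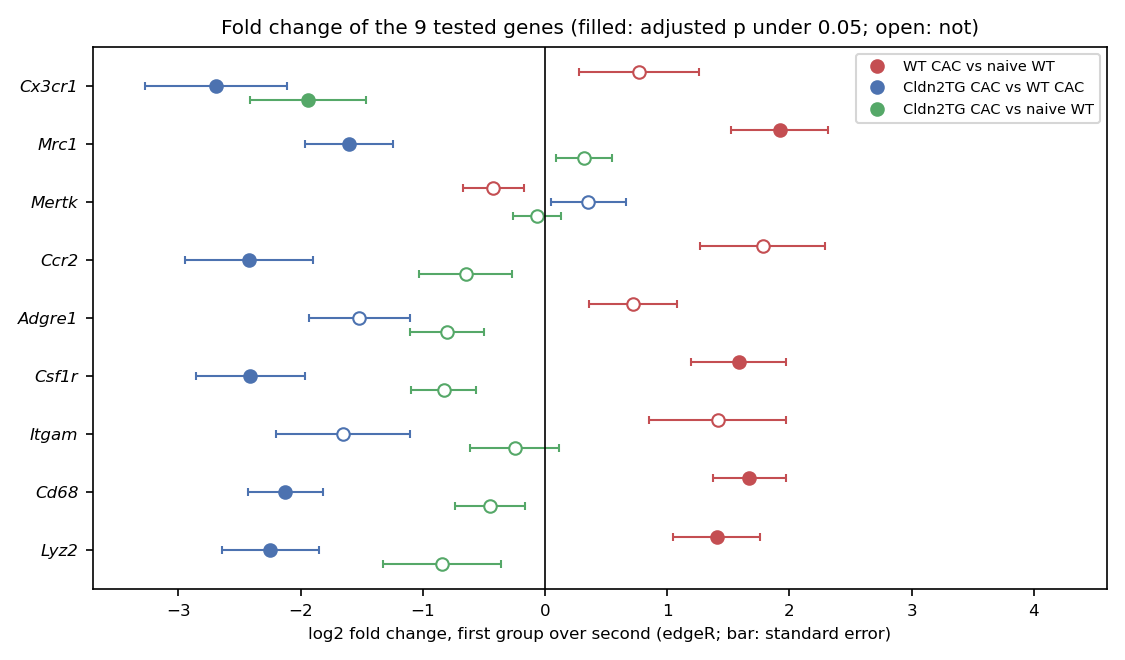
Log2 fold change of the 9 tested genes (horizontal axis, edgeR, bars for the standard error) in the 3 comparisons, with filled points for an adjusted p under 0.05 and open points for the rest. The estimates in Cldn2TG CAC versus WT CAC lie between -2.70 and -1.52 for every gene except *Mertk* at 0.36, and those in Cldn2TG CAC versus naive WT lie nearer to 0 except for *Cx3cr1* at -1.94. Each group of mice enters 2 of the 3 comparisons, which are therefore not independent.

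*Cx3cr1* was at 0.896, 0.253 and 0.665 CPM in *Cldn2*TG CAC mice 7 to 9, against 1.63 to 5.70 CPM in WT CAC. All 3 mice were below every other mouse of the study, and the log2 fold change was -2.70 (SE 0.58, edgeR adjusted p = 0.0253). *Ccr2* was at 0.758, 0.557 and 0.960 CPM, against 1.57 to 6.24 CPM in WT CAC (log2 -2.43, SE 0.52, edgeR adjusted p = 0.0252). A receptor of mature macrophages and a receptor of incoming monocytes were thus lower by factors of 6.48 and 5.37.

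*Csf1r* was at 4.75, 2.58 and 2.73 CPM in mice 7 to 9, against 8.13 to 25.9 CPM in WT CAC (log2 -2.41, SE 0.45, edgeR adjusted p = 0.0176). *Cd68* was at 1.65, 2.03 and 1.33 CPM, against 4.98 to 8.44 CPM in WT CAC, and had the lowest adjusted p of the 9 genes (log2 -2.12, SE 0.31, edgeR adjusted p = 0.00875). *Lyz2* was at 34.2, 25.9 and 12.5 CPM, against 73.2 to 146 CPM (log2 -2.25, SE 0.40, edgeR adjusted p = 0.0188). For each of these 3 genes, the highest *Cldn2*TG CAC mouse was below WT CAC mouse 4, the lowest of its group.

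*Mrc1* was at 5.92, 5.17 and 5.76 CPM in mice 7 to 9, the tightest group of the gene, against 8.03 to 22.8 CPM in WT CAC (log2 -1.60, SE 0.36, edgeR adjusted p = 0.0286). *Adgre1* was at 1.52, 0.861 and 1.26 CPM, below WT CAC mouse 4 at 1.83 CPM without overlap, yet narrowly missed the threshold (log2 -1.52, SE 0.41, edgeR adjusted p = 0.0533). *Itgam* was at 1.10, 0.760 and 0.960 CPM and overlapped WT CAC through mouse 4 (log2 -1.65, SE 0.55, edgeR adjusted p = 0.1003).

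*Mertk* stayed apart from the other genes here as well, at 40.6, 24.3 and 24.5 CPM in mice 7 to 9 against 13.8 to 28.8 CPM in WT CAC (log2 0.36, SE 0.31, edgeR adjusted p = 0.579). *Cd163* had 3, 12 and 7 counts in mice 7 to 9, too few to be tested. Neither gene was called, and for *Cd163* a difference was not detectable at this depth.

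The groups of 7 of the 9 genes did not overlap (the 6 called and *Adgre1*), as for 28.5% of all genes tested in *Cldn2*TG CAC versus WT CAC. The calls depended on single mice at this threshold, and 0 of the 9 genes were called without mouse 8 or without mouse 9, when the adjusted p of *Cd68* was 0.0520 and 0.0551. Without mouse 7 there were 3 (*Cd68*, *Csf1r* and *Lyz2*), without WT CAC mouse 5 or 6 there were 2 (*Cd68* and *Csf1r*), and without mouse 4 there were 8, all but *Mertk*. Over all genes the calls moved in the same way, from 1421 with all mice to 58 without mouse 8, 108 without mouse 9 and 2894 without mouse 4. The estimates themselves moved less than the calls. Those of the 6 called genes lay between -3.09 and -1.30 in these fits, all below 0. With library size as the only normalization, the median of all genes shifted by -0.10 and 7 members were called lower.

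*Cldn2*TG CAC colon was last set beside naive WT colon, a comparison in which genotype and treatment differ together. *Cx3cr1* fell 3.83-fold, and the other 8 tested genes did not pass the test. The called share was 1 of 9 members, beside 10.0% of all 15013 genes tested and 6.07% called lower. The median log2 fold change of the 9 genes was -0.65, beside 0.00 over all genes.

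*Cx3cr1* was at 0.253 to 0.896 CPM in *Cldn2*TG CAC and at 1.26 to 2.95 CPM in naive WT, without overlap (log2 -1.94, SE 0.47, edgeR adjusted p = 0.0293). Its call rested on few counts, 5 to 13 in mice 7 to 9, and was lost without mouse 1, 3, 8 or 9 (adjusted p = 0.0717, 0.106, 0.0968 and 0.0760). *Csf1r* and *Adgre1* did not overlap either, with log2 fold changes of -0.83 (SE 0.27, edgeR adjusted p = 0.0753) and -0.80 (SE 0.30, edgeR adjusted p = 0.124). These 3 genes were those without overlap among the 9, where 31.2% of all genes tested had none.

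*Mrc1* was close to its naive level in *Cldn2*TG CAC, at 5.17 to 5.92 CPM beside 3.21 to 5.25 CPM (log2 0.32, SE 0.23, edgeR adjusted p = 0.417). *Mertk* was at 24.3 to 40.6 CPM beside 28.6 to 34.7 CPM (log2 -0.06, SE 0.20, edgeR adjusted p = 0.867). *Cd68*, *Lyz2*, *Ccr2* and *Itgam* overlapped between the groups, with log2 fold changes from -0.84 to -0.25 and adjusted p-values from 0.306 to 0.707 in edgeR. *Csf1r* was also called without mouse 7 (adjusted p = 0.0219), the *Cldn2*TG CAC mouse with the highest *Csf1r*.

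The balance of resident-type to recruited markers was described within each mouse as the log2 CPM of a resident-type gene minus that of *Ccr2*. Gene length cancels when such differences are compared between mice, and no test was made because the score is built from chosen genes. The mean over the 4 resident-type genes was 1.44, 1.83 and 1.50 above *Ccr2* in naive WT mice, and 0.73, -0.01 and -0.79 relative to *Ccr2* in WT CAC mice 4 to 6. It was 1.78, 1.90 and 1.45 above *Ccr2* in *Cldn2*TG CAC mice. All WT CAC mice thus lay below all others, with a group mean of -0.02 ± 0.76 (SD, n = 3) against 1.59 ± 0.21 in naive WT and 1.71 ± 0.23 in *Cldn2*TG CAC.

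**Figure D3:**
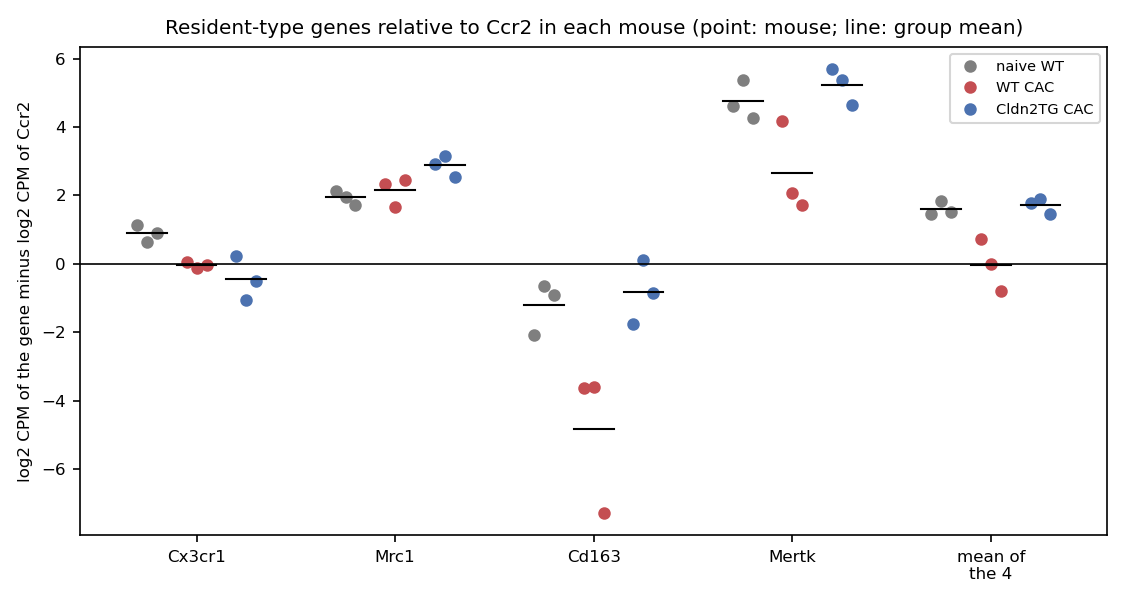
Log2 CPM of each resident-type gene minus log2 CPM of *Ccr2* (vertical axis) in every mouse, and the mean over the 4 genes at the right, with points for mice and lines for group means. The 4 genes do not move alike: *Mertk* and *Cd163* are low in WT CAC, *Mrc1* is not, and *Cx3cr1* is highest in naive WT.

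The 4 genes contributed unequally to this balance. *Mertk* minus *Ccr2* was 4.27 to 5.39 in naive WT, 1.73 to 4.17 in WT CAC and 4.64 to 5.69 in *Cldn2*TG CAC. Per kilobase of gene length *Mertk* was at 7.22 CPM in naive WT, beside 1.22 for *Csf1r*, and it did not follow the other members. Which cells its RNA came from was not tested, so its part of the balance need not measure resident macrophages. *Cd163* minus *Ccr2* was -2.09 to -0.65, -7.29 to -3.61 and -1.75 to 0.12 in the same order, where the lowest value is mouse 6 with 0 counts of *Cd163* and depends on the prior count of 0.5. Leaving *Cd163* out turned the WT CAC mean from -0.02 to 1.58, beside 2.53 in naive WT and 2.56 in *Cldn2*TG CAC.

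*Mrc1* kept pace with *Ccr2* in treated WT colon, at 1.73 to 2.12 above it in naive WT and 1.66 to 2.45 in WT CAC, ranges that overlap. In *Cldn2*TG CAC *Mrc1* stood 2.55 to 3.15 above *Ccr2*, higher than in any other mouse. *Cx3cr1* minus *Ccr2* was 0.63 to 1.13 in naive WT, -0.13 to 0.05 in WT CAC and -1.06 to 0.23 in *Cldn2*TG CAC. For *Cx3cr1* the treated groups of both genotypes lay below naive WT and overlapped each other.

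The genes were also described relative to *Csf1r*, a gene of the whole lineage, within each mouse. The ratio of *Mrc1* to *Csf1r* counts was 0.646 to 0.823 in naive WT, 0.761 to 1.22 in WT CAC and 1.25 to 2.11 in *Cldn2*TG CAC. The ratio of *Mertk* to *Csf1r* was 4.38 to 6.99, 0.736 to 3.54 and 8.54 to 9.41 in that order, with no overlap between any of the groups. As the cells behind *Mertk* RNA were not tested, this ratio need not describe macrophages alone. *Ccr2* to *Csf1r* stayed at 0.162 to 0.245 in naive WT and 0.194 to 0.241 in WT CAC, and was 0.159 to 0.351 in *Cldn2*TG CAC. *Adgre1* to *Csf1r* was lower in every WT CAC mouse (0.174 to 0.225) than in naive WT (0.298 to 0.394) or *Cldn2*TG CAC (0.319 to 0.459). Relative to *Ptprc*, the leukocyte antigen CD45, *Ccr2* overlapped across all 3 groups (0.105 to 0.172, 0.0934 to 0.256 and 0.0909 to 0.228), as did *Cd68* (0.218 to 0.376, 0.295 to 0.419 and 0.224 to 0.331). *Mertk* to *Ptprc* was lower in every WT CAC mouse (0.684 to 1.70) than in naive WT (2.61 to 7.44) or *Cldn2*TG CAC (3.97 to 5.82). *Cx3cr1* to *Ptprc* was 0.232 to 0.312 in naive WT, 0.0964 to 0.235 in WT CAC and 0.0413 to 0.158 in *Cldn2*TG CAC, with no overlap between naive WT and *Cldn2*TG CAC. *Mrc1* to *Ptprc* was 0.464 to 0.688, 0.476 to 1.13 and 0.804 to 1.37, again without overlap between naive WT and *Cldn2*TG CAC. *Cd163* to *Ptprc*, from few counts, was 0.0227 to 0.108 in naive WT, 0 to 0.0200 in WT CAC and 0.0280 to 0.123 in *Cldn2*TG CAC, and WT CAC lay below both other groups.

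Levels of different genes were compared per kilobase of gene length, as CPM per kilobase (RPKM). *Lyz2* had the highest RPKM in every group, at 34.4 in naive WT, 89.7 in WT CAC and 19.1 in *Cldn2*TG CAC. *Mertk* was next in naive WT (7.22 RPKM) and in *Cldn2*TG CAC (6.87), and came after *Cd68* in WT CAC (5.27 and 5.77 RPKM), with overlapping ranges. In naive WT the order then ran *Cd68* (1.84 RPKM), *Csf1r* (1.22), *Mrc1* (0.709), *Adgre1* (0.646), *Cx3cr1* (0.601), *Itgam* (0.220), *Ccr2* (0.183) and *Cd163* (0.0962). Neighbours from *Mrc1* to *Cx3cr1* and from *Itgam* to *Cd163* overlapped there. In WT CAC every neighbouring pair from *Cd68* down to *Itgam* overlapped, so the order within that stretch was not resolved. In *Cldn2*TG CAC *Cx3cr1* (0.162 RPKM) came after *Itgam* (0.187) with overlapping ranges, and *Mrc1* (0.882) and *Csf1r* (0.687) overlapped.

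*Lyz2* needs its paralog *Lyz1*, the lysozyme of Paneth cells, beside it. The transcripts are 96.0% identical over 1262 aligned bases, and 15.4% of 50-base and 2.0% of 100-base windows of *Lyz2* occur unchanged in *Lyz1*, so that some reads of one could be counted on the other or left out, and the values of *Lyz2* are uncertain to that extent. *Lyz1* was at 3.14, 2.81 and 3.82 CPM in naive WT, at 128, 172 and 998 CPM in WT CAC and at 13.5, 17.8 and 8.79 CPM in *Cldn2*TG CAC. It exceeded *Lyz2* in each WT CAC mouse and in no other mouse, in CPM and per kilobase. *Lyz1* rose in WT CAC versus naive WT (log2 7.08, SE 1.01, edgeR adjusted p = 0.0125) and fell in *Cldn2*TG CAC versus WT CAC (log2 -5.03, SE 0.96, edgeR adjusted p = 0.0276). It also rose in *Cldn2*TG CAC versus naive WT (log2 2.04, SE 0.26, edgeR adjusted p = 0.00227), where *Lyz2* was not called (log2 -0.84, SE 0.48, adjusted p = 0.347).

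**Figure D4:**
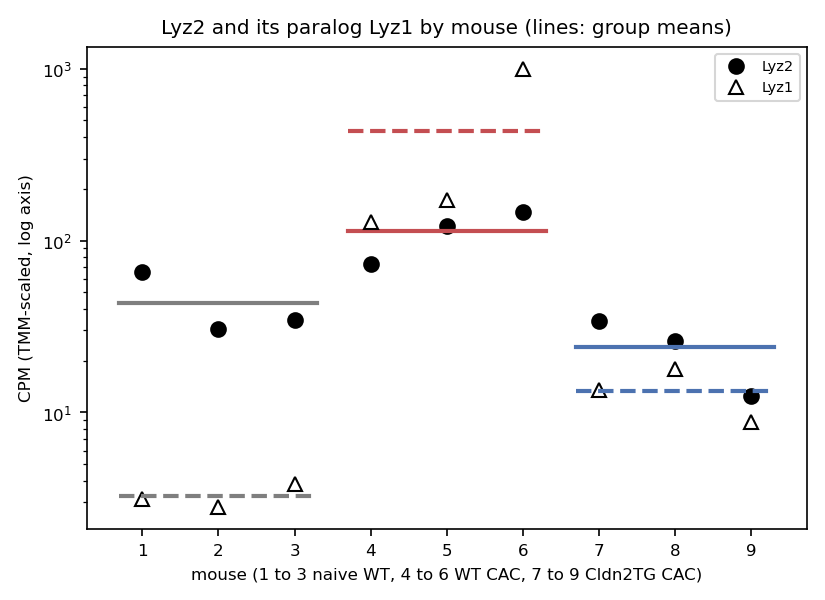
CPM of *Lyz2* (filled circles) and *Lyz1* (open triangles) on a log axis in the 9 mice, with solid and dashed lines at the group means. *Lyz1* spans 2.81 to 998 CPM and *Lyz2* 12.5 to 146 CPM, and both are at their highest in WT CAC mouse 6.

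Summed as 1 gene, *Lyz1* and *Lyz2* gave a log2 fold change of 3.56 in WT CAC versus naive WT (SE 0.73, edgeR adjusted p = 0.0262) and of -3.88 in *Cldn2*TG CAC versus WT CAC (SE 0.75, edgeR adjusted p = 0.0267). *Lyz1* made up most of this sum in WT CAC, and the sum does not measure reads shared between the genes. The 5 Paneth cell markers, *Lyz1* among them, summed to 22.6 to 30.1 CPM in naive WT, 162 to 1671 in WT CAC and 21.3 to 44.4 in *Cldn2*TG CAC, with none at 0. Of these, 4 rose in WT CAC and 1 fell in *Cldn2*TG CAC versus WT CAC, and their part in the *Lyz2* counts was not tested.

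Beyond the 10 genes, 7 lists, 6 of genes of macrophages, monocytes and their ligands and 1 of pan-leukocyte genes, were described by the number of their genes called in each comparison, read beside the shares of all genes called given above. Their median log2 fold changes were 0.73 to 1.82 in WT CAC versus naive WT (0.02 over all genes), -2.26 to -0.48 in *Cldn2*TG CAC versus WT CAC (0.01) and -0.37 to 0.01 in *Cldn2*TG CAC versus naive WT (0.00). Of 14 further resident macrophage genes, 12 were tested. In WT CAC versus naive WT 5 rose and 1 fell, and in *Cldn2*TG CAC versus WT CAC 6 fell and 1 rose. The complement C1q genes led them. *C1qa* was at 9.43 ± 2.37 CPM (SD, n = 3) in naive WT, 38.1 ± 17.9 in WT CAC and 8.29 ± 3.07 in *Cldn2*TG CAC (edgeR adjusted p = 0.0229 and 0.0266 for the comparisons with WT CAC), and *C1qb* behaved alike (log2 1.95 and -2.50). *Selenop* and *Gas6*, the highest of the list in CPM, were not called in any comparison, and which cells their RNA came from was not tested. *Gas6*, a ligand of MERTK, was at 693 ± 87.6 CPM in naive WT, 498 ± 69.1 in WT CAC and 703 ± 26.2 in *Cldn2*TG CAC. *Cd4* was called with this list and is a T cell gene too. In *Cldn2*TG CAC versus naive WT, 1 gene fell, *Stab1*.

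Of 10 monocyte genes, 9 were tested, and 5 rose in WT CAC versus naive WT while 6 fell in *Cldn2*TG CAC versus WT CAC. *Ly6c1* was at 10.5 ± 2.72, 35.9 ± 13.6 and 11.9 ± 3.21 CPM in naive WT, in WT CAC and in *Cldn2*TG CAC (edgeR adjusted p = 0.0163 and 0.0202 for the comparisons with WT CAC). *Ccr1*, a chemokine receptor, had log2 fold changes of 1.71 and -2.34. *Fn1*, encoding fibronectin and also made by stromal cells, fell below its naive level in *Cldn2*TG CAC (log2 -1.01, SE 0.18, edgeR adjusted p = 0.0101), as did *Vcan*, the other gene of the list called there. *Plac8* and *Cd177*, the highest of the list in CPM (1186 and 315 in naive WT), were not called between the treated groups. Which cells their RNA came from was not tested.

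The list of 28 myeloid receptors and phagocyte genes had 16 of 25 tested genes higher and 1 lower in WT CAC versus naive WT, and 13 of 23 lower in *Cldn2*TG CAC versus WT CAC. *Itgb2*, the beta chain that pairs with the product of *Itgam*, was at 1.86 to 3.47 CPM in naive WT, 6.10 to 15.4 in WT CAC and 1.72 to 1.92 in *Cldn2*TG CAC (edgeR adjusted p = 0.0185 and 0.00777 for the comparisons with WT CAC). *Itgb2* was thus called in both comparisons in which *Itgam*, whose counts are uncertain through the bases shared with *Gm49368*, was not. *Sirpa* and *Laptm5* moved with it, with log2 fold changes of 1.27 and 1.60, then -1.74 and -1.93. *Tyro3* and *Axl* belong to one receptor family with *Mertk*. They were named after their values were seen. *Tyro3* was the 1 gene that fell in WT CAC (log2 -0.62, SE 0.13, edgeR adjusted p = 0.0247), and *Axl* fell in *Cldn2*TG CAC versus WT CAC (log2 -1.09, SE 0.24, edgeR adjusted p = 0.0270). *Lgals3* and *Ctsb*, the highest of the list in CPM, were not called in either, and *Lgals3* alone was called in *Cldn2*TG CAC versus naive WT (log2 0.54, SE 0.11, edgeR adjusted p = 0.0126).

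**Figure D5:**
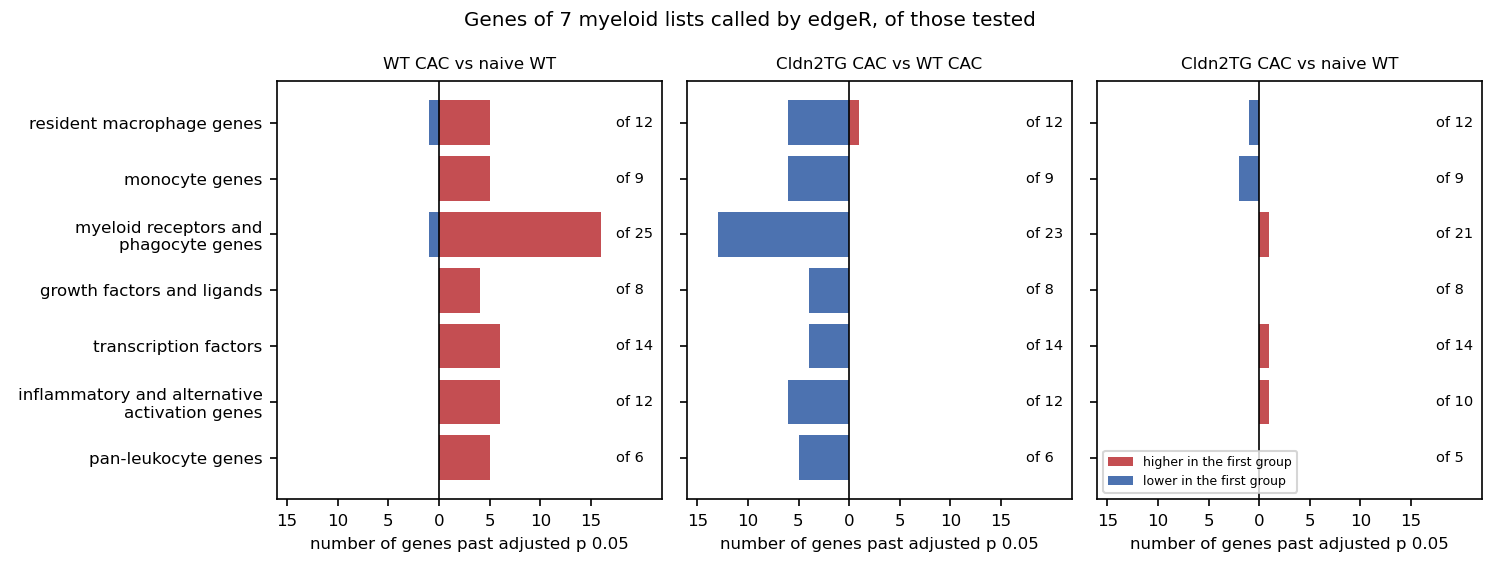
Number of genes of each of the 7 myeloid lists past an adjusted p of 0.05 in edgeR, higher (red, to the right) or lower (blue, to the left) in the first-named group of the 3 comparisons, with the number tested at the right of each bar. Calls are mostly to the right in WT CAC versus naive WT, mostly to the left in Cldn2TG CAC versus WT CAC, and 6 in all in Cldn2TG CAC versus naive WT.

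Ligands and growth factors of these receptors formed a list of 16 genes, of which 8 were tested. *Csf1*, *Ccl8*, *Cxcl12* and *Icam1* rose in WT CAC versus naive WT, the same 4 fell in *Cldn2*TG CAC versus WT CAC, and 0 were called in *Cldn2*TG CAC versus naive WT. *Csf1*, a ligand of CSF1R, was at 4.96 ± 0.965, 12.1 ± 5.14 and 3.99 ± 0.252 CPM in naive WT, in WT CAC and in *Cldn2*TG CAC (edgeR adjusted p = 0.0460 and 0.0233). *Il34*, the other CSF1R ligand, was at 14.9 ± 3.21, 24.3 ± 6.91 and 16.3 ± 3.71 CPM and was not called (adjusted p = 0.0691 and 0.156). *Icam1*, an endothelial and leukocyte ligand of the *Itgam* and *Itgb2* product, had log2 fold changes of 2.81 and -2.68. *Cx3cl1*, the ligand of CX3CR1, was not called in either, at 153 ± 21.2, 123 ± 24.0 and 144 ± 18.2 CPM (edgeR adjusted p = 0.260 and 0.530). *Ccl2*, the main ligand of CCR2, had too few counts to be tested, at 0.0502 to 0.249 CPM in naive WT, 0.457 to 3.28 in WT CAC and 0.148 to 0.355 in *Cldn2*TG CAC, and it was named after its values were seen.

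Of 14 macrophage transcription factors, all were tested, and 6 rose in WT CAC versus naive WT, 4 fell in *Cldn2*TG CAC versus WT CAC and 1 (*Cebpb*) rose in *Cldn2*TG CAC versus naive WT. *Spi1*, which encodes PU.1, was at 1.90 ± 0.718, 6.15 ± 2.15 and 1.51 ± 0.634 CPM in naive WT, in WT CAC and in *Cldn2*TG CAC (log2 1.72 and -2.04, edgeR adjusted p = 0.0261 and 0.0168). *Irf5* and *Zeb2* moved in the same directions (log2 1.50 and 1.07, then -1.93 and -1.90). *Klf4* and *Stat6*, the highest of the list in CPM and also expressed by epithelium, were not called.

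Of 16 inflammatory and alternative activation genes, 6 of 12 tested rose in WT CAC versus naive WT, 6 of 12 fell in *Cldn2*TG CAC versus WT CAC, and 1 of 10, *Vegfa*, rose in *Cldn2*TG CAC versus naive WT. *Nos2*, an inducible nitric oxide synthase also made by epithelium, was at 4.47 ± 2.01 CPM in naive WT and 148 ± 149 in WT CAC (edgeR adjusted p = 0.0350). *Arg1*, the arginase of alternatively activated macrophages, was at 0.266 ± 0.102 and 28.6 ± 23.6 CPM (edgeR adjusted p = 0.0265). In WT CAC *Arg1* ranged from 1.47 to 44.0 CPM among the 3 mice, and the SD of both genes was near their mean. *Retnla*, another gene of alternatively activated macrophages, was at 2.07 ± 1.98, 0.976 ± 1.35 and 3.23 ± 1.31 CPM in naive WT, in WT CAC and in *Cldn2*TG CAC and was not called (edgeR adjusted p = 0.587 in WT CAC versus naive WT and 0.397 in *Cldn2*TG CAC versus WT CAC), and *Il10* had too few counts to be tested. *Il1b* and *Acod1*, genes of inflammatory myeloid cells, had log2 fold changes of 4.10 and 3.86 in WT CAC and of -4.00 and -4.73 in *Cldn2*TG CAC versus WT CAC.

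The list counts moved with the same mice as the counts of the 10 genes. In WT CAC versus naive WT the 7 lists had 4 to 22 called genes each without mouse 4 and 0 to 2 each without naive mouse 2. In *Cldn2*TG CAC versus WT CAC they had 5 to 20 each without mouse 4 and 0 to 2 each without mouse 8.

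Markers of other leukocytes were counted in the same comparisons. Of 6 pan-leukocyte genes, 5 rose in WT CAC and 5 fell in *Cldn2*TG CAC versus WT CAC, with summed levels of 32.9 to 67.7, 126 to 172 and 26.7 to 51.4 CPM in naive WT, in WT CAC and in *Cldn2*TG CAC. *Coro1a* had log2 fold changes of 2.39 and -2.44 and *Lcp1* of 1.09 and -1.30. *Ptprc* itself was at 8.36 ± 3.28, 20.4 ± 3.74 and 5.90 ± 1.59 CPM (edgeR adjusted p = 0.0297 and 0.00777). Summed T cell markers were at 5.47 to 10.9, 17.7 to 31.0 and 6.64 to 10.5 CPM, with 5 of 6 higher in WT CAC and 5 of 6 lower in *Cldn2*TG CAC versus WT CAC. Dendritic cell markers summed to 2.86 to 5.72, 7.67 to 19.0 and 2.07 to 4.20 CPM, with 2 of 3 tested higher and 1 of 2 tested lower in those comparisons. None of the markers of these 3 lists was at 0 throughout a group, and their part in the results for the 10 genes was not tested.

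Of 8 neutrophil markers, 4 were tested and rose in WT CAC, and 2 of 3 tested fell in *Cldn2*TG CAC versus WT CAC. Their summed level, 137 to 208, 300 to 378 and 302 to 351 CPM, was made up mostly of *Ly6g*, which was as high in *Cldn2*TG CAC (328 ± 24.3 CPM) as in WT CAC (314 ± 14.7) and was called higher than naive WT in *Cldn2*TG CAC (log2 0.87, edgeR adjusted p = 0.00881). *S100a9*, by contrast, was at 0.184 ± 0.162, 11.6 ± 10.7 and 0.146 ± 0.00731 CPM. *Ly6g* was already at 180 CPM in naive WT, where *S100a9* was near 0. The summed level therefore need not measure neutrophils, and the cells behind *Ly6g* were not tested. *Retnlg*, *Mpo* and *Elane* were at 0 throughout naive WT, *Elane* throughout WT CAC and *Mpo* throughout *Cldn2*TG CAC. *Itgam* and *Lyz2* are shared with neutrophils, and the part of these cells was not tested. Of 6 B cell markers 0 were called in WT CAC versus naive WT and 1, *Cd79a*, fell in *Cldn2*TG CAC versus WT CAC, with sums of 3.82 to 31.8, 28.2 to 55.9 and 3.03 to 20.1 CPM. Of 5 mast cell markers, 2 were tested, *Tpsb2* rose in WT CAC, and *Kit* fell in WT CAC (log2 -1.23) and was higher in *Cldn2*TG CAC than in WT CAC (log2 0.88, edgeR adjusted p = 0.0196).

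Markers of the tissue's other cells moved in part. Of 5 blood endothelial markers, 3 fell in *Cldn2*TG CAC versus WT CAC and 4 against naive WT, *Pecam1* and *Cdh5* in both, and their sum was 28.5 to 35.2 CPM in naive WT, 26.2 to 40.8 in WT CAC and 12.7 to 15.8 in *Cldn2*TG CAC. Of 5 fibroblast markers, *Col1a2* was the 1 called lower in each of these comparisons, and the sums were 151 to 216, 224 to 612 and 118 to 153 CPM. All 6 enteric neuron and glia markers fell in *Cldn2*TG CAC versus naive WT and 2 fell in WT CAC, and of 5 smooth muscle markers 2 fell in *Cldn2*TG CAC versus naive WT. Of 5 lymphatic markers, *Prox1* was called higher in WT CAC (log2 4.39) and lower in *Cldn2*TG CAC versus WT CAC (log2 -4.29), with *Ccl21a* at 0 throughout. Of the 6 epithelial markers *Krt8* was called, in *Cldn2*TG CAC versus naive WT only (log2 0.43, edgeR adjusted p = 0.0384). The part of these cells in the levels of *Cx3cr1*, *Ccr2* and the other genes was not tested.

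The genes nearest in pattern to 4 of the members were found as those with the smallest root mean square difference of mean-centred log2 CPM over the 9 mice, among 13713 genes. Nearest to *Ccr2* were *Il4ra* (0.214), *Myo1f* (0.251) and *Itgb2* (0.266). Nearest to *Csf1r* were *C1qb* (0.211), *Angptl2* (0.218) and *Tnfaip2* (0.220). For *Itgam* they were *D16Ertd472e* (0.250), *Igsf11* (0.265) and *Cd300lf* (0.270). *Mrc1* had the nearest gene of all, *Arid5a* (0.136), followed by *Fam3c* (0.172) and *Sox21* (0.207). None of these 3 is in the lists, and *Fam3c* was at 10.2, 37.5 and 13.4 CPM in naive WT, in WT CAC and in *Cldn2*TG CAC.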

How the data were processed

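RNA from the colon of 9 mice was sequenced in 2 lanes per library on a NovaSeq6000. The deposited table holds whole-number read counts per gene made by the authors with featureCounts, without normalization. The processing labels name HISAT2, Subread and GRCm38, the study's methods name TopHat2, and versions and strand are not given in the sources used here. Groups were taken from genotype and treatment labels, and each replicate number was treated as 1 mouse. The 2 lanes of a library differed by no more than sampling noise (chi-square per degree of freedom 0.995 to 1.06 on genes with at least 20 counts, against 16.8 to 66.3 between mice of a group) and were summed. Symbols were matched for 47224 of 47729 genes.

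Each pair of groups was fitted with edgeR 4.0.16 (R 4.3.3): TMM, filterByExpr (minimum count 10, total 15), robust quasi-likelihood test, two-sided, Benjamini-Hochberg over all genes tested. A gene is called at an adjusted p under 0.05. The SE is the log2 fold change divided by the root of the F statistic. Log2 CPM used a prior count of 0.5. In a simulation of *Cldn2*TG CAC versus WT CAC on 14888 genes, 182 of 200 changed genes were called, with 24 unchanged ones. Alternatives were DESeq2 1.42.0, other normalizations and filters, 1 fit of all mice, single lanes, leaving out each mouse, a fold limit, and *Lyz1* and *Lyz2* summed.

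The 10 genes, the 7 myeloid lists and the 12 marker lists were chosen with earlier results of these data known. Named from each list were the 2 genes with the highest mean CPM and up to 3, again by mean CPM, that were called in both comparisons with WT CAC. For *Ccr2*, *Mrc1*, *Csf1r* and *Itgam* the 3 genes nearest in pattern were named, among those with a mean of at least 1 CPM. Other genes were named after their values were seen. Of the listed genes, 1 is not reported by name.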

Additional observations from a re-analysis of the deposited data

How the results depend on the processing

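Of 211 fold changes of the 9 tested genes under another normalization, filter, tool, fit or lane and 162 without 1 mouse, 210 and 158 kept their sign. The exceptions were *Mertk* in *Cldn2*TG CAC versus naive WT (log2 -0.06), at 0.000605 from lane 2 alone and from -0.362 to 0.0626 without 1 mouse (above 0 without mouse 2, 8 or 9), and *Itgam* in that comparison (-0.25), from -0.426 to 0.0926 without 1 mouse (above 0 without mouse 3). *Cd163*, not tested with all mice, was tested in *Cldn2*TG CAC versus naive WT without mouse 1, 2, 7 or 9, with log2 fold changes from -0.54 to 0.0877 (above 0 without mouse 7). The number of the 10 genes called without 1 mouse ran from 0 to 7 in WT CAC versus naive WT (4 with all mice), from 0 to 8 in *Cldn2*TG CAC versus WT CAC (6) and from 0 to 2 in *Cldn2*TG CAC versus naive WT (1). Under the other settings it was 3 to 5 in the first (5 with DESeq2, with at least 10 counts in every library and with all mice in 1 fit) and 5 to 8 in the second (8 with DESeq2). In the third it was 2 with DESeq2, without a filter or from lane 1 alone, and 0 with at least 10 counts in every library, with all mice in 1 fit or from lane 2 alone. *Adgre1* in *Cldn2*TG CAC versus WT CAC passed the threshold under 6 of 8 other settings and *Ccr2* in WT CAC versus naive WT under 5 of 8 (adjusted p = 0.00864 with DESeq2). Without a filter *Lyz2* missed it (adjusted p = 0.0966 in *Cldn2*TG CAC versus WT CAC and 0.147 in WT CAC versus naive WT), as did *Csf1r* in WT CAC versus naive WT (0.0547), and from lane 2 alone *Cx3cr1* missed it in *Cldn2*TG CAC versus WT CAC (0.0521) and *Lyz2* in WT CAC versus naive WT (0.0554). With DESeq2 *Itgam* passed it in *Cldn2*TG CAC versus WT CAC (0.0464). The cause was not tested.

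The mean of the resident-type genes over *Ccr2* depended on the genes taken. Without *Cd163* it was 2.53, 1.58 and 2.56 in naive WT, in WT CAC and in *Cldn2*TG CAC, and without *Mertk* 0.54, -0.91 and 0.53. Without *Cx3cr1* it was 1.83 in naive WT and 2.43 in *Cldn2*TG CAC, and without *Mrc1* 1.48 in naive WT, -0.75 in WT CAC and 1.32 in *Cldn2*TG CAC, so that *Cldn2*TG CAC then lay below naive WT. The WT CAC mean of -0.02 became 0.19 with a prior count of 2, and ran from -0.40 to 0.36 when 1 mouse was left out. No paired analysis was possible because the groups share no replicate numbers. Depth limits *Cd163*, which had at most 19 counts in a mouse, and with 3 mice a group the calls near the threshold rest on single mice.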
